A study of Mus musculus with 9 samples.

Results

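The collagens and laminins examined here are the genes of the lung count table whose symbol names a collagen alpha chain (Col, number, a, number) or a laminin alpha, beta or gamma chain (Lama, Lamb or Lamc with a number). Of the 21930 genes in the table, 55 matched, and 51 of these had 10 or more counts in at least 3 of the 9 libraries. They were split by structure into fibrillar collagens (9 of 11 passing), basement membrane genes (17 of 17 passing, made up of 6 type IV collagens and 11 laminin chains) and other collagens (25 of 27 passing). Col2a1, Col11a1, Col9a1 and Col9a2 did not pass; Col9a1 was at 0 in every library and the other three had totals of 17 to 40 counts over all libraries. Col19a1 and Col25a1 passed but, with totals of 61 and 68 counts, fell under the filter of the test, so 49 genes were tested.

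Whole lungs of 9 mice in 3 groups of 3 were compared. LPS + RSBD mice received LPS (a bacterial endotoxin that inflames the lung) at 2 mg/kg into the trachea and then daily gavage with RSBD, decocted Renshen Baidu Powder, a herbal formula; LPS mice received the same LPS and then vehicle; control mice received saline. According to the labels all mice were male C57BL/6 of 6 to 8 weeks, all lungs were taken on day 5 after instillation, and gavage began the day after it and ran for 5 days, so how many doses a lung had seen is unclear. Library totals ranged from 26959662 to 36113905 counts. The control libraries held 6 to 9 reads on chromosome Y genes and the other 6 libraries 7511 to 10918, although every mouse is labelled male. Each comparison with control is therefore also one of libraries lacking such reads with libraries holding them, and treatment and this difference cannot be told apart. The p-values set a difference between groups against the estimated spread between these libraries. In bulk lung RNA fewer cells of a type and less RNA per cell cannot be told apart.

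Collagens are built from alpha chains wound into a triple helix. Fibrillar collagens such as types I and III form the tensile fibres of the interstitium and are laid down mainly by fibroblasts. Type IV collagen and the laminins, cross-shaped trimers of an alpha, a beta and a gamma chain, form the networks of the basement membrane, the thin sheet beneath epithelium and endothelium that in the alveolus lies between air and blood. Type IV genes are arranged in head-to-head pairs whose members share a promoter region, and the chains of a laminin trimer come from genes on different chromosomes.

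The shared promoter regions of 2 of these type IV pairs are shown because the count ratio within each pair is described further on. The windows are from RefSeq (GRCm38.p6), run 5′ to 3′ along the minus strand and hold 250 bases before and 50 after the start of the named gene. The Col4a4 window lies at chr1:82586800-82587099; its capitals mark the 71 bases between the start of Col4a4 and that of Col4a3, which is transcribed the other way. The Col4a1 window lies at chr8:11312777-11313076; its capitals mark the 22 bases that the Col4a1 and Col4a2 gene models share on opposite strands.
Col4a4: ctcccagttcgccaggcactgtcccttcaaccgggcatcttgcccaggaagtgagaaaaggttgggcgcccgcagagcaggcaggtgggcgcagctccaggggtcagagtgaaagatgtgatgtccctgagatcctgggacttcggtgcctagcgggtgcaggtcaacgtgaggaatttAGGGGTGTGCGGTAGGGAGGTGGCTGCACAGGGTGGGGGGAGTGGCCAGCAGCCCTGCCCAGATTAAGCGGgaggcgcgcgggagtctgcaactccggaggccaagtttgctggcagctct
Col4a1: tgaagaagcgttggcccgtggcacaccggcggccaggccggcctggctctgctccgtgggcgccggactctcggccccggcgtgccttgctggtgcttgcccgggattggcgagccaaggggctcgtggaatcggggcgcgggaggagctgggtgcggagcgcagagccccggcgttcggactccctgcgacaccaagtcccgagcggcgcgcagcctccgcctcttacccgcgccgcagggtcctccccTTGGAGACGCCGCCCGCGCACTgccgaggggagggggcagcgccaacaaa
Searched on both strands, the Col4a1 window held 1 CCAAT (position 106 of the window) and 1 GGGCGG (position 260, inside the shared bases), and the Col4a4 window held neither. TATAAA was in neither window. Of all 32544 promoter windows in the RefSeq table, 37.4% held CCAAT, 35.9% GGGCGG and 13.6% TATAAA. Of the 44 windows of the 40 collagen and laminin genes matched, 31.8% held CCAAT, 59.1% GGGCGG and 11.4% TATAAA. A match is a run of letters and not a measured binding site.

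The first question was what LPS left in these genes by day 5. In LPS lungs 4 of the 49 tested genes were higher than in control lungs (Lama1, Col4a3, Lama3 and Lamb3) and 6 were lower (Lamb2, Lama5, Col27a1, Col7a1, Col8a2 and Col28a1) at an edgeR adjusted p under 0.05 over all genes tested. That is 20.4% of the genes, beside 17.4% of all 15636 genes tested (8.79% higher, 8.63% lower), so the share called is near the background. The calls fell on 5 of 11 laminins, 1 of 6 type IV, 1 of 9 fibrillar and 3 of 23 other collagens. The median log2 fold change of the 49 was -0.07, against -0.01 for all genes tested. The LPS and control libraries did not overlap for 9 genes that were higher and 13 that were lower, beside a background of 18.6% and 19.5%. Of the 10 calls, those of Lama1 and Lamb2 were kept under all 17 alternative settings, and each of the other 8 was lost on leaving out at least 1 library.

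**Figure D1:**
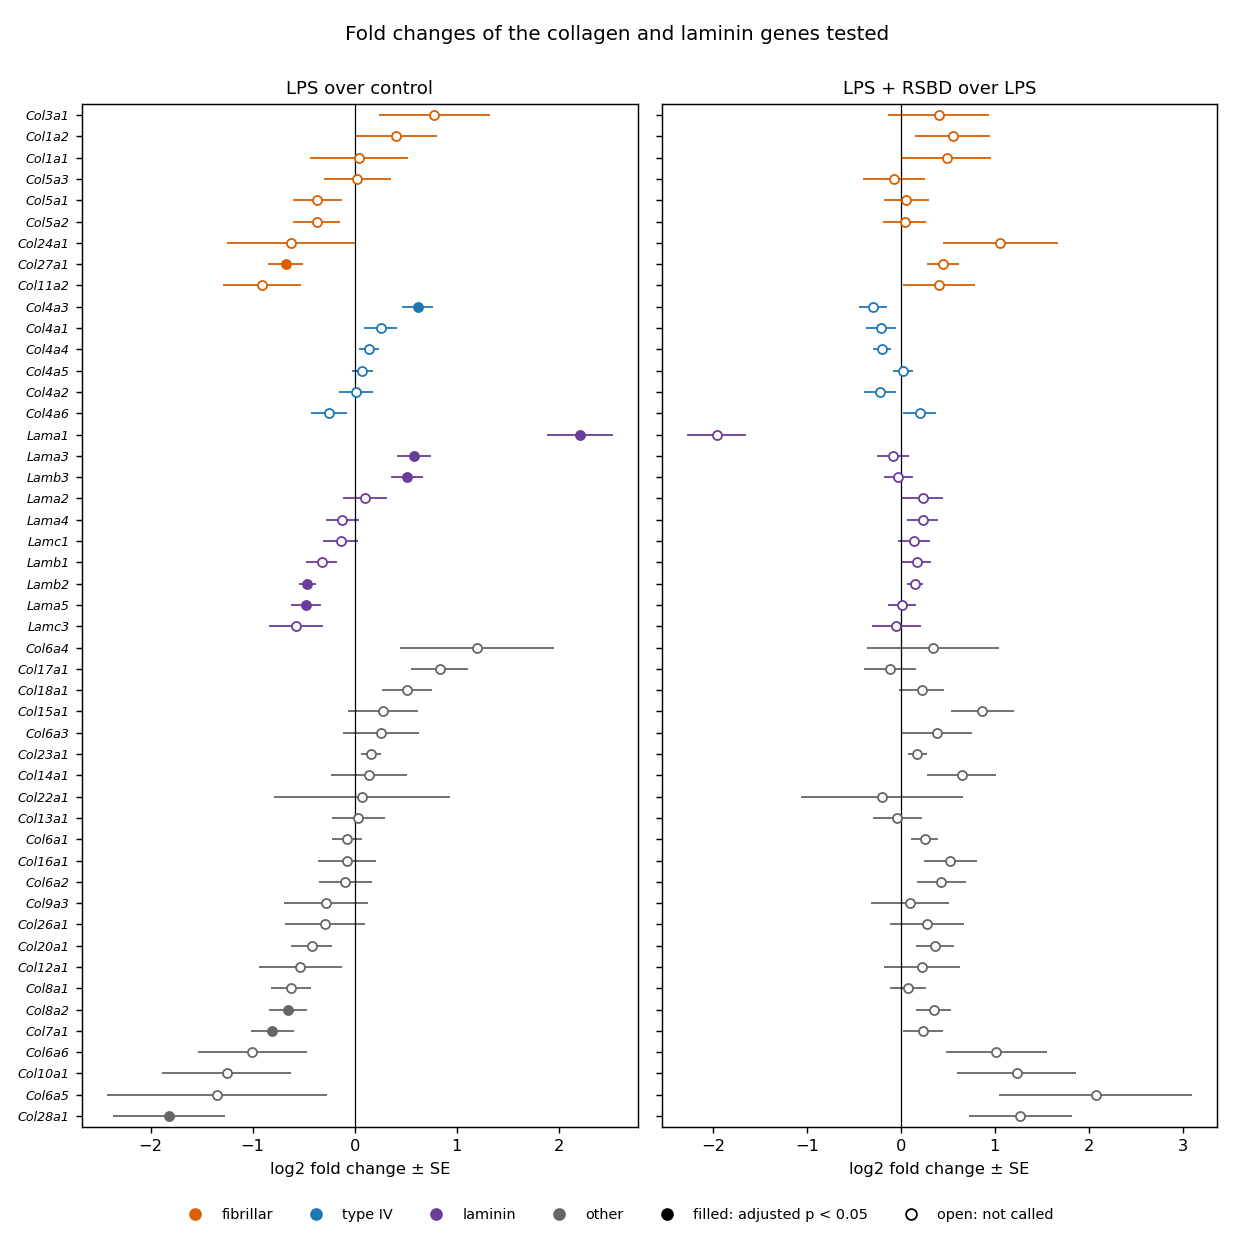
Log2 fold change ± SE of tested collagen and laminin genes, LPS over control on the left and LPS + RSBD over LPS on the right, grouped by class and ordered by the left panel; filled points have an edgeR adjusted p under 0.05. The 10 filled points on the left are spread over all 4 classes and both directions, and no point on the right is filled.

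Among the laminin alpha chains, Lama1, the alpha chain of the embryonic laminin that is scarce in adult lung, had the highest positive fold change of the 49. Its level was 3.13, 3.91 and 3.82 CPM (counts scaled to library size) in the LPS + RSBD libraries, 20.4, 14.1 and 7.74 CPM in the LPS libraries and 3.06, 3.57 and 2.53 CPM in the control libraries. All 3 LPS libraries lay above all 6 others, LPS library 3 being the lowest of its group, and the LPS + RSBD libraries lay within or just above the control range. The LPS over control log2 fold change was 2.2 ± 0.32 (SE; edgeR adjusted p = 0.00417). It ranged from 1.84 to 2.52 on leaving out single libraries and was 1.12 on the log2(TPM + 1) scale, where low levels move less. Lama1 lies at chr17:67697259-67822647 on the plus strand.

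Markers of leukocytes gave these values beside Lama1. The summed level of 8 macrophage markers was 912 to 1864 CPM in LPS + RSBD libraries, 2070 to 3883 CPM in LPS libraries and 1205 to 1641 CPM in control libraries, and 4 of the 8 were called higher in LPS against control. For 8 neutrophil markers, of which 2 were called higher, the sums were 414.3, 534.1 and 2770 CPM with LPS + RSBD, 6394, 6120 and 2328 CPM with LPS and 1770, 517.5 and 1892 CPM in controls. The calls made 50% of the macrophage and 25% of the neutrophil markers, beside 8.79% of all genes called higher in LPS against control. No marker of either list was at 0 in all libraries. Of the macrophage calls, Ear2 and Siglecf were kept under all 17 settings, Ccr2 under 15 and Mmp12 under 3. The neutrophil calls, Ngp and Camp, were kept under 7 each. The part of macrophages and neutrophils in the Lama1 result was not tested.

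Lama3 and Lamb3 encode the alpha and beta chains of the epithelial laminin that anchors cells through hemidesmosomes. Lama3 stood at 122.1, 127.1 and 79.1 CPM with LPS + RSBD, 119.2, 121.2 and 108.6 CPM with LPS and 76.2, 89.4 and 67.8 CPM in controls. Lamb3 stood at 60.4, 56.3 and 41.3 CPM with LPS + RSBD, 51.7, 57.7 and 51.6 CPM with LPS and 40.1, 42.3 and 30.7 CPM in controls. For both genes every LPS library was above every control library, and LPS + RSBD library 3 lay in the control range. The LPS over control log2 fold changes were 0.58 ± 0.17 for Lama3 (edgeR adjusted p = 0.0439) and 0.51 ± 0.16 for Lamb3 (edgeR adjusted p = 0.0490). Both calls were marginal. Each was lost without any 1 of the 6 LPS and control libraries and without LPS + RSBD library 1, Lamb3 also without LPS + RSBD library 2, with adjusted p up to 0.136 and 0.151.

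Lama5 and Lamb2 are the alpha and beta chains of the laminins that prevail in mature alveolar and vascular basement membranes. Lamb2 was 151.9, 138.9 and 137.9 CPM with LPS + RSBD, 138.2, 128.6 and 119.2 CPM with LPS and 175.6, 184.4 and 173.0 CPM in controls. All 6 libraries of mice given LPS lay below the lowest control library. Its LPS over control log2 fold change was -0.47 ± 0.08 (edgeR adjusted p = 0.00788), the second smallest adjusted p of the 49, and it stayed between -0.52 and -0.39 on leaving out single libraries. Lama5 was 213.8, 196.0 and 206.3 CPM with LPS + RSBD, 253.6, 189.7 and 167.6 CPM with LPS and 276.9, 255.5 and 319.8 CPM in controls. LPS library 1 came close to control library 2, but the groups did not overlap. The log2 fold change of Lama5 was -0.48 ± 0.15 (edgeR adjusted p = 0.0468), a call kept under 3 of 17 settings; without LPS library 1 it was kept, and without any other single library it was lost, with adjusted p up to 0.157.

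**Figure D2:**
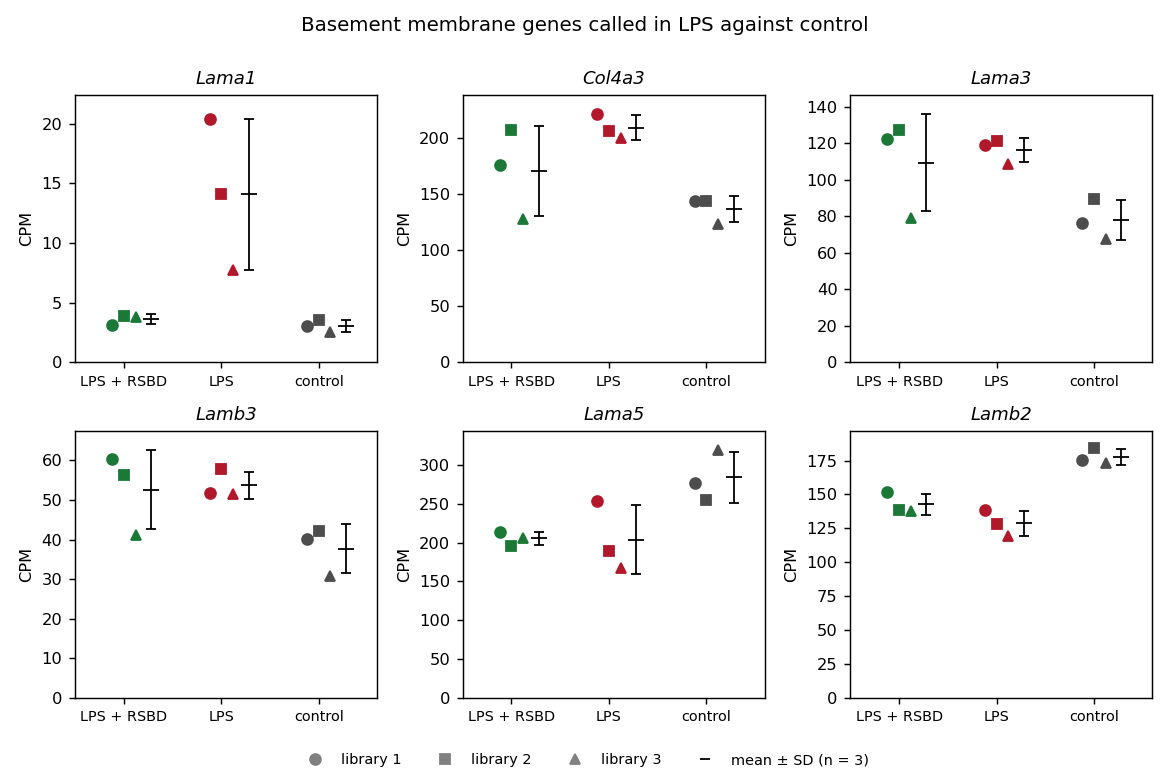
Level in CPM (counts scaled to library size, linear axes from 0) of the 6 basement membrane genes called in LPS against control, with a symbol for each library and the mean ± SD (n = 3) beside each group. Lama1 is high in the 3 LPS libraries (7.74 to 20.4 CPM) and at 2.53 to 3.91 CPM in the other 6; Lamb2 is below the controls in all 6 libraries of mice given LPS.

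Lama2, Lama4, Lamb1, Lamc1 and Lamc3 were not called, with LPS over control log2 fold changes between -0.58 (Lamc3) and 0.10 (Lama2). Lamb1, the beta chain of vessel and muscle laminins, was 119.6, 103.2 and 77.3 CPM with LPS + RSBD, 97.8, 90.4 and 78.9 CPM with LPS and 97.99, 119.5 and 116.5 CPM in controls. Its LPS libraries were all just below its control libraries, by -0.32 ± 0.15 on the log2 scale (edgeR adjusted p = 0.165).

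Read as shares of summed TPM (a unit that allows for gene length), the laminin chains stood as follows; the shares were not tested. Lama1 made 0.783 ± 0.208% of the alpha chain total with LPS + RSBD, 3.03 ± 1.04% with LPS and 0.623 ± 0.113% in controls (SD, n = 3 each). Lama3 made 20.7 ± 2.13% with LPS + RSBD, 23.2 ± 2.51% with LPS and 14.4 ± 2.14% in controls. Lama5 made 37.8 ± 6.40% with LPS + RSBD, 37.6 ± 3.15% with LPS and 49.5 ± 5.09% in controls. Lama5 was the most abundant alpha chain in every library and Lama1 the least, and the LPS + RSBD range reached into the control range for Lama1 and Lama5. Among beta chains Lamb3 made 22.7 ± 2.53% with LPS + RSBD, 24.9 ± 2.05% with LPS and 14.9 ± 1.58% in controls, and Lamb2 49.4 ± 5.65%, 47.7 ± 0.402% and 57.1 ± 1.16% in the same groups. In each of these 5 shares the LPS libraries did not overlap the control libraries, while the shares of Lama4 (23.7 to 28.4% with LPS and 23.7 to 27.7% in controls) and Lamb1 (25.7 to 29.2% with LPS and 25.6 to 29.9% in controls) did.

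The same was measured as a count ratio of 2 chains within a library, which is free of any scaling between libraries. The log2 ratio of Lama3 to Lama5 was -0.81, -0.62 and -1.38 with LPS + RSBD, -1.09, -0.65 and -0.63 with LPS and -1.86, -1.51 and -2.24 in controls. The 6 libraries of mice given LPS were all above the 3 controls, and the LPS minus control difference was 1.08. For Lamb3 to Lamb2 the ratio was -1.33, -1.30 and -1.74 with LPS + RSBD, -1.42, -1.16 and -1.21 with LPS and -2.13, -2.13 and -2.49 in controls. Here too the controls stood below, with an LPS minus control difference of 0.99. In both pairs the first gene was higher and the second lower in LPS than in control libraries, each without overlap. The separation of LPS from control in these 2 ratios therefore restates the single-gene results and is no further support for them. The ratio of Lama3 to Lamb3 differed by 0.07 with overlapping groups. Of the 10 pairs examined, none passed a threshold of 0.05 in LPS against control. A 2-sided exact permutation test of 3 against 3 cannot go below 0.1, and the lowest value after Benjamini-Hochberg adjustment over 30 tests was 0.3.

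**Figure D3:**
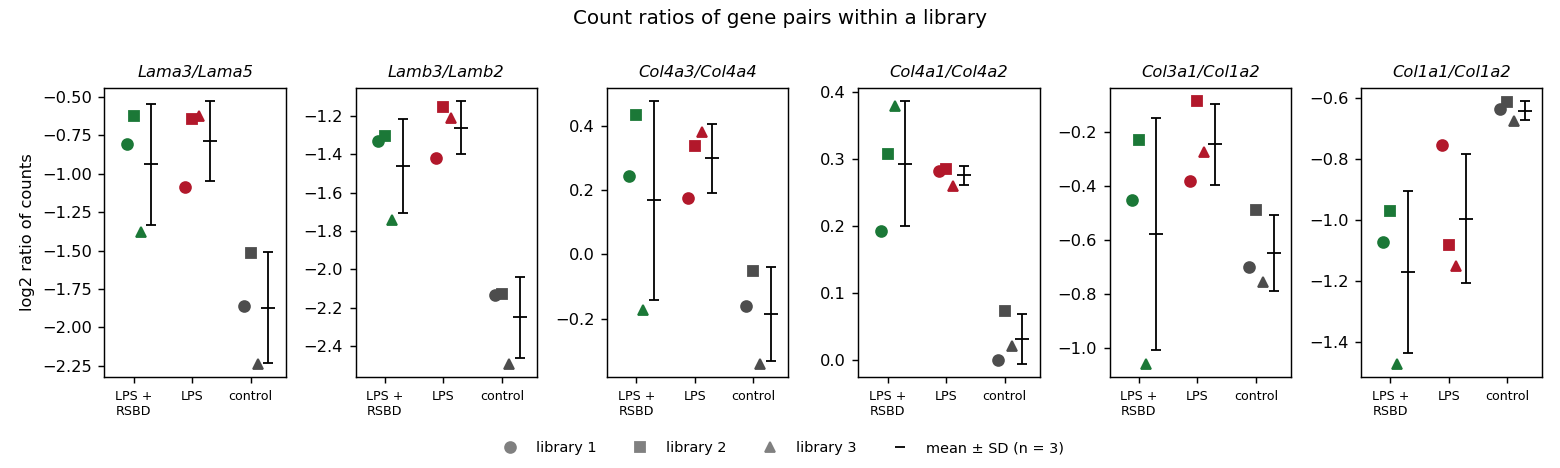
Log2 ratio of the counts of 2 genes within each library for 6 of the 10 pairs, with the mean ± SD (n = 3) beside each group; the axes differ between panels and do not start at 0. Shown are the 6 pairs in which the 3 LPS libraries are clear of the 3 controls, above them in 5 panels and below them for Col1a1/Col1a2. In the other 4 pairs, not shown, LPS and control libraries overlapped.

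Markers of epithelium and endothelium gave these values beside the laminin and type IV results. Of 8 alveolar type 1 markers 1 was higher (Cldn18) and 1 lower (Aqp5) in LPS than in control, and their sums overlapped, at 2935 to 3253 CPM with LPS + RSBD, 3045 to 3403 CPM with LPS and 2967 to 3519 CPM in controls. Of 8 airway markers 5 were lower and 0 higher. Their sums were 25250 to 31770 CPM, 18670 to 28550 CPM and 26640 to 38530 CPM in the same order of groups. Of 8 endothelial markers 2 were higher (Cdh5 and Pecam1), and their sums were 3220 to 3479 CPM with LPS + RSBD, 3428 to 4224 CPM with LPS and 3149 to 3361 CPM in controls, without overlap between LPS and control. Called in either direction were 25% of alveolar type 1, 62.5% of airway and 25% of endothelial markers. For all genes the share was 17.4% (8.79% higher, 8.63% lower). Of the airway calls, Bpifb1 and Muc5b were kept under all 17 settings, Dnah9 under 12, Ccdc39 under 9 and Foxj1 under 6. Cdh5 was kept under 16, Cldn18 under 12, Aqp5 under 10 and Pecam1 under 6. None of these markers was at 0 in all libraries, and their part in the laminin and type IV results was not tested.

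Of the 55 genes Col4a1 and Col4a2 had the highest level per length, averaging 119.1 TPM and 106.0 TPM over the 9 libraries. Summed type IV TPM averaged 290.4 ± 61.2 with LPS + RSBD, 337.2 ± 74.2 with LPS and 314.9 ± 22.2 in controls (SD, n = 3 each), and summed laminin TPM 274.2 ± 51.1, 262.5 ± 49.4 and 320.3 ± 24.1 in the same groups. These 2 chains form the network common to all basement membranes. Col4a1 was 401.5, 539.7 and 342.2 CPM with LPS + RSBD, 573.3, 463.1 and 448.7 CPM with LPS and 382.2, 444.2 and 419.8 CPM in controls. Col4a2 was 351.2, 436.2 and 263.3 CPM with LPS + RSBD, 471.4, 380.1 and 374.8 CPM with LPS and 382.1, 422.3 and 413.5 CPM in controls. Neither was called in LPS against control, with log2 fold changes of 0.25 ± 0.16 and 0.01 ± 0.17, although the LPS libraries of Col4a1 were all just above its controls. Their log2 count ratio was 0.19, 0.31 and 0.38 with LPS + RSBD, 0.28, 0.29 and 0.26 with LPS and 0.00, 0.07 and 0.02 in controls. The ratio was thus nearly equal among the LPS libraries, and all 6 libraries of mice given LPS exceeded the controls. The 2 gene models overlap by 22 bases in the promoter region printed above.

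Col4a3, Col4a4 and Col4a5 chains form a second network, known from the glomerulus and the alveolus. Col4a3 was 176.6, 207.9 and 127.7 CPM with LPS + RSBD, 222.2, 206.7 and 200.4 CPM with LPS and 143.7, 143.7 and 123.5 CPM in controls. The LPS libraries were well above the controls, and LPS + RSBD library 3 was again within the control range. Its LPS over control log2 fold change was 0.61 ± 0.15 (edgeR adjusted p = 0.0267), kept under 9 of 17 settings and lost without any 1 of control libraries 1 to 3 or LPS libraries 1 and 2, with adjusted p up to 0.0913. Its head-to-head partner Col4a4 was not called: 149.1, 153.9 and 144.0 CPM with LPS + RSBD, 196.5, 163.4 and 153.7 CPM with LPS and 160.8, 148.8 and 156.5 CPM in controls, with overlapping groups and a log2 fold change of 0.14 ± 0.10. The log2 ratio of Col4a3 to Col4a4 was 0.24, 0.43 and -0.17 with LPS + RSBD, 0.18, 0.34 and 0.38 with LPS and -0.16, -0.05 and -0.34 in controls. The ratio was above 0 in all LPS libraries and below 0 in all controls, a difference of 0.48.

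The remaining type IV pair, Col4a5 and Col4a6, showed no call. Col4a5 was 82.5, 89.0 and 68.4 CPM with LPS + RSBD, 77.5, 79.6 and 79.0 CPM with LPS and 79.2, 77.2 and 67.8 CPM in controls. Col4a6, which pairs with Col4a5 in a network of smooth muscle and airway basement membranes, was 14.2, 10.8 and 12.8 CPM with LPS + RSBD, 12.0, 8.82 and 11.9 CPM with LPS and 12.9, 11.2 and 14.9 CPM in controls. Both overlapped between all groups. As a share of type IV TPM, Col4a3 made 11.8 ± 0.708% with LPS + RSBD, 12.7 ± 0.722% with LPS and 9.38 ± 0.896% in controls, and Col4a2 31.9 ± 1.55%, 32.5 ± 0.547% and 36.5 ± 0.808%. For both shares all 6 libraries of mice given LPS were on one side of the 3 controls.

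**Figure D4:**
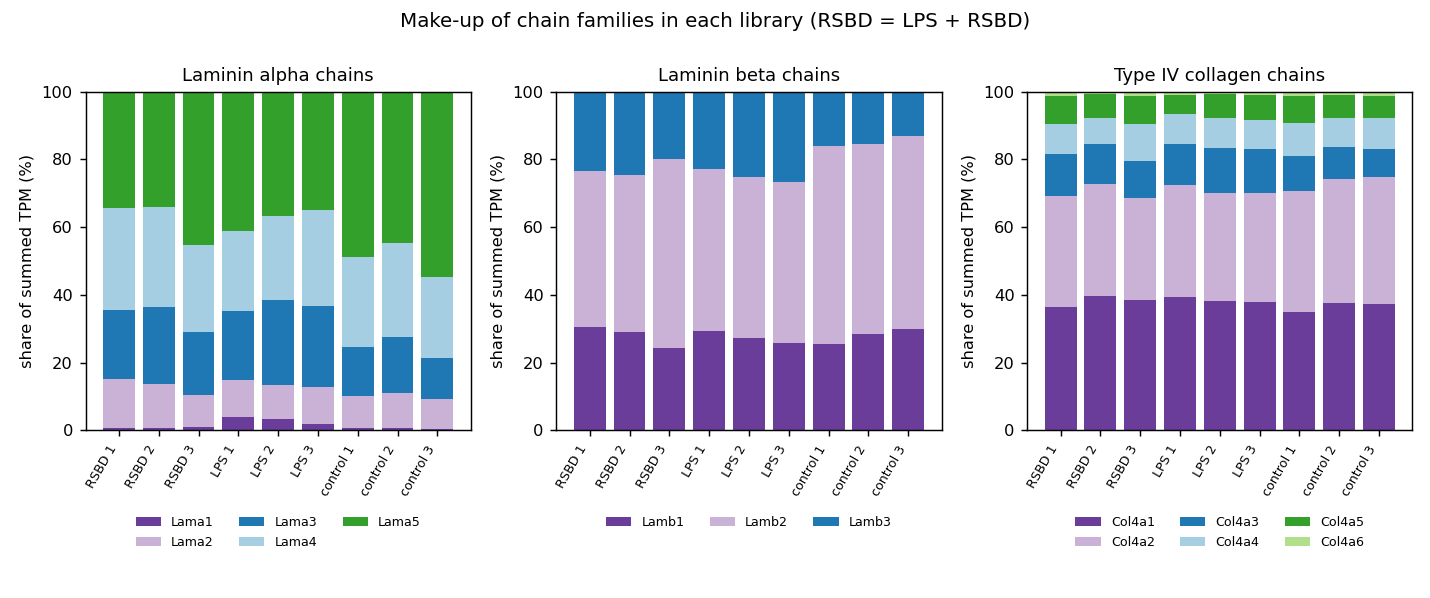
Share of the summed TPM held by each laminin alpha, laminin beta and type IV collagen chain in each of the 9 libraries (stacked to 100%). Lama1 is a visible sliver only in the LPS libraries (1.88 to 3.89%), and Lama3, Lamb3 and Col4a3 take more of their bars in the LPS libraries than in the controls.

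The fibrillar collagens carried 1 call. Col27a1, a fibrillar collagen best known from cartilage, was 27.7, 28.1 and 18.8 CPM with LPS + RSBD, 20.2, 16.4 and 18.2 CPM with LPS and 32.8, 29.9 and 24.8 CPM in controls. Its LPS libraries were all below its controls, by -0.68 ± 0.17 on the log2 scale (edgeR adjusted p = 0.0270) that was kept under 12 of 17 settings. The call was lost without control library 1 or 2 or LPS library 2 or 3, with adjusted p up to 0.101. Of 10 cartilage markers 5 were tested, and 1, Cytl1, was called lower in LPS against control (-1.1 ± 0.20, edgeR adjusted p = 0.00851). That is 20%, beside 8.63% of all genes, and the call was kept under all 17 settings. Without overlap 3 of the 5 were lower, beside 19.5% of all genes. The 10 markers summed to 54.2 to 69.1 CPM with LPS + RSBD, 52.1 to 61.0 CPM with LPS and 52.9 to 78.04 CPM in controls, with Ucma at 0 in every library. Their part in the Col27a1 result was not tested.

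The major fibril-forming genes, Col1a1 and Col1a2 (type I) and Col3a1 (type III), were not called in LPS against control. Col1a1 was 106.8, 165.3 and 29.6 CPM with LPS + RSBD, 78.1, 61.2 and 76.1 CPM with LPS and 65.0, 88.2 and 55.9 CPM in controls. Col1a2 was 224.4, 323.7 and 82.0 CPM with LPS + RSBD, 131.8, 129.5 and 168.6 CPM with LPS and 101.0, 134.9 and 89.3 CPM in controls. Col3a1 was 164.1, 276.5 and 39.4 CPM with LPS + RSBD, 101.3, 122.1 and 139.7 CPM with LPS and 62.2, 96.2 and 52.9 CPM in controls. In all 3 genes LPS + RSBD library 2 was the highest of the 9 libraries and LPS + RSBD library 3 the lowest. The LPS over control log2 fold changes were 0.04 ± 0.48 for Col1a1, 0.40 ± 0.40 for Col1a2 and 0.78 ± 0.54 for Col3a1. The LPS libraries of Col3a1 were all above its controls, but the fitted spread leaves an edgeR adjusted p of 0.343.

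The log2 ratio of the 2 chains of type I collagen, Col1a1 to Col1a2, was -1.07, -0.97 and -1.47 with LPS + RSBD, -0.76, -1.08 and -1.15 with LPS and -0.64, -0.61 and -0.68 in controls. The controls lay close together and above all 6 libraries of mice given LPS, by 0.35 for LPS. Col3a1 to Col1a2 went the other way, with an LPS minus control difference of 0.40; neither ratio passed the permutation test. Type V collagen, which nucleates type I fibrils, had log2 fold changes of -0.37 ± 0.24 (Col5a1) and -0.37 ± 0.23 (Col5a2), not called, with LPS libraries below controls for both. Col5a3, Col11a2 and Col24a1 stayed under 6 CPM and were not called.

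**Figure D5:**
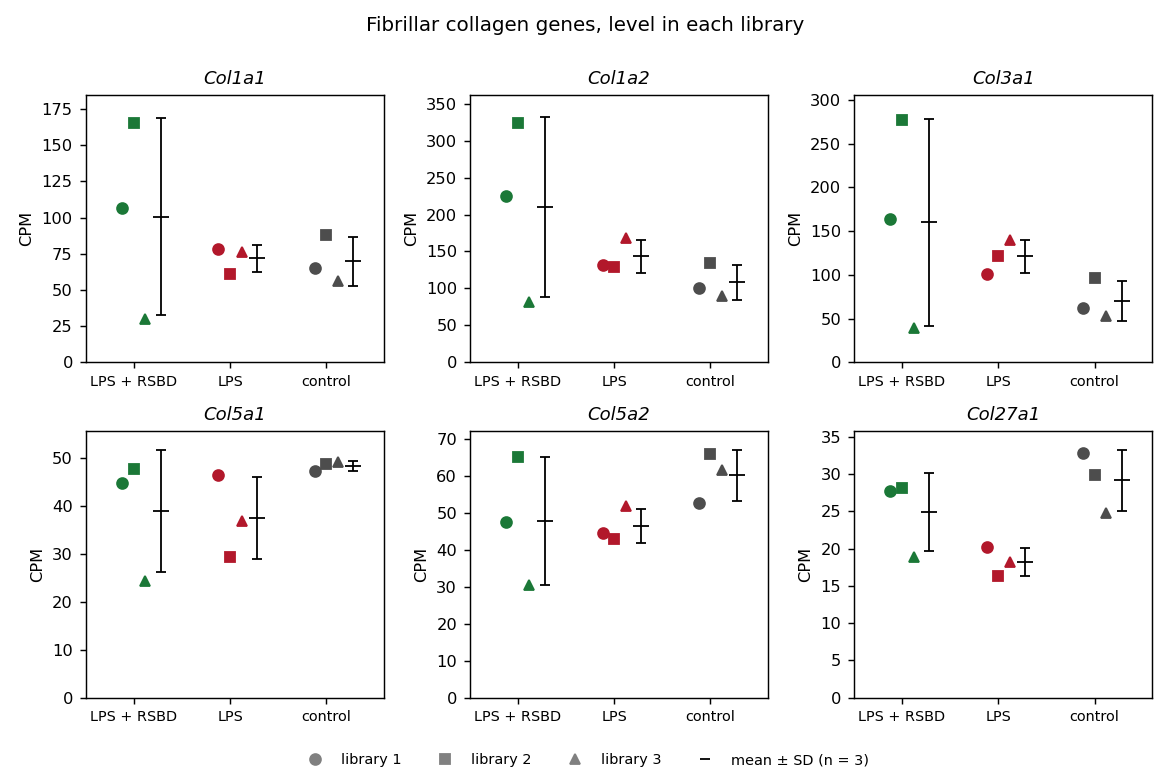
Level in CPM (counts scaled to library size, linear axes from 0) of 6 fibrillar collagen genes in each library, with the mean ± SD (n = 3) beside each group. For Col1a1, Col1a2 and Col3a1 the LPS + RSBD libraries span the whole range of the 9, library 2 at the top and library 3 at the bottom.

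Of the other collagens 3 were lower in LPS lungs. Col7a1, which forms the anchoring fibrils below stratified and airway epithelium, was 15.9, 11.8 and 11.6 CPM with LPS + RSBD, 14.4, 11.2 and 7.81 CPM with LPS and 19.2, 19.9 and 19.4 CPM in controls. All 6 libraries of mice given LPS were below the 3 controls, and the LPS over control log2 fold change was -0.81 ± 0.21 (edgeR adjusted p = 0.0298). Basal cell markers were scarce, with the sum over 6 genes at 1.10 to 10.9 CPM with LPS + RSBD, 0.582 to 1.27 CPM with LPS and 0.774 to 7.47 CPM in controls. Col8a2, a short-chain collagen that forms hexagonal lattices, was 26.2, 19.7 and 30.0 CPM with LPS + RSBD, 19.1, 18.7 and 21.8 CPM with LPS and 25.6, 29.0 and 39.2 CPM in controls. Its LPS libraries were below its controls, by -0.65 ± 0.19 (edgeR adjusted p = 0.0396). Col28a1, known in mouse from Schwann cells of peripheral nerve, was 2.66, 1.58 and 0.872 CPM with LPS + RSBD, 1.00, 0.229 and 0.909 CPM with LPS and 1.97, 2.77 and 2.78 CPM in controls. Its LPS over control log2 fold change was -1.82 ± 0.55 (edgeR adjusted p = 0.0464) and rests on 7 to 27 counts a library in the LPS group.

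These 3 calls also depended on single libraries. Col7a1 was lost without any control library or LPS library 2 or 3 (adjusted p up to 0.0929). Col8a2 was lost without control library 2 or 3, any LPS library or LPS + RSBD library 1 (up to 0.132). Col28a1 was lost without any control or LPS library or LPS + RSBD library 2 (up to 0.119). Without LPS + RSBD library 3, which belongs to neither group but enters the filter, the scaling and the shared estimate of spread, the count of genes called was 12 in LPS against control, with Col17a1, Col18a1 and Col8a1 added and Lama5 lost. In that fit 16.9% of all genes tested were called.

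Type VI collagen, a beaded filament around cells, supplied the most abundant of the other collagens. Col6a1 averaged 71.9 TPM and Col6a2 36.5 TPM over the 9 libraries. Col6a1 was 203.5, 208.0 and 144.4 CPM with LPS + RSBD, 174.3, 145.1 and 147.2 CPM with LPS and 160.6, 183.6 and 146.3 CPM in controls. Col6a2 was 119.7, 131.9 and 60.2 CPM with LPS + RSBD, 82.4, 68.3 and 80.7 CPM with LPS and 77.4, 99.0 and 70.2 CPM in controls. Neither differed in LPS against control beyond the spread, with log2 fold changes of -0.07 ± 0.15 and -0.09 ± 0.26. Col13a1, a transmembrane collagen, came next per length at 27.9 TPM. It was 57.4, 52.6 and 30.0 CPM with LPS + RSBD, 55.7, 43.9 and 44.3 CPM with LPS and 44.6, 60.8 and 34.8 CPM in controls, with overlapping groups.

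The second question was whether RSBD altered these genes in lungs given LPS. No gene passed in LPS + RSBD against LPS: 0 of the 49 and 0% of all 15636 genes had an edgeR adjusted p under 0.05, while 4 of the 49 (8.16%) and 1473 of all genes (9.42%) had an unadjusted p under 0.05. Those 4 were Lama1, Col27a1, Col15a1 and Col28a1. DESeq2 called 1 of the 49, Lama1, and 165 of all genes. The groups did not overlap for 2 genes that were higher, Col10a1 and Col6a6, and 1 that was lower, Lama1, beside a background of 7.18% and 5.46%.

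Lama1 had the smallest p of the 49. Its log2 fold change in LPS + RSBD over LPS was -1.96 ± 0.32, lower in all 3 LPS + RSBD libraries than in any LPS library, with an unadjusted p of 9.26e-05 and an edgeR adjusted p of 0.284. DESeq2 gave -1.98 with an adjusted p of 1.33e-05, the lowest of 17 alternatives, the highest being 0.795 in edgeR without LPS library 2. Whether Lama1 is called thus turns on the tool. Against control, LPS + RSBD libraries were at a log2 difference of 0.24 ± 0.32 (edgeR adjusted p = 0.690). The comparisons of LPS with control and of LPS + RSBD with LPS share the LPS libraries.

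By class the medians of the LPS + RSBD over LPS log2 fold change were 0.41 for fibrillar collagens, -0.21 for type IV, 0.01 for laminins and 0.34 for other collagens, beside 0.01 for all genes tested. The fibrillar median comes with wide errors, as the log2 fold changes of Col1a1, Col1a2 and Col3a1 were 0.49 ± 0.48, 0.55 ± 0.40 and 0.40 ± 0.54. Col4a3 was -0.30 ± 0.15 and Col4a4 -0.20 ± 0.10. Lama3, Lamb3 and Lama5 were -0.09 ± 0.17, -0.03 ± 0.16 and 0.01 ± 0.15, and Lamb2 was 0.15 ± 0.08. All 10 chain ratios overlapped between LPS + RSBD and LPS.

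The LPS + RSBD libraries differed among themselves in these genes more than the other groups did. The median coefficient of variation of the 9 fibrillar genes was 36.2% with LPS + RSBD, 15.9% with LPS and 15.9% in controls, while over all genes tested it was 11.02%, 12.5% and 10.3%. Summed fibrillar TPM was 192.3, 276.4 and 67.1 with LPS + RSBD, 142.6, 117.1 and 139.4 with LPS and 110.7, 151.9 and 107.7 in controls. LPS + RSBD library 3 was the lowest of the 9 libraries in 20 of the 49 genes (40.8%, against 8.69% of all genes tested) and the lowest of its group in 38 of them (77.6%, against 36.4%). LPS + RSBD library 2 was the highest of the 9 in 14 of the 49 (28.6%, against 10.7% of all genes tested). The low values of library 3 spanned the classes, with 6 of 9 fibrillar, 3 of 6 type IV, 6 of 11 laminin and 5 of 23 other collagens.

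Other values set LPS + RSBD library 3 apart as well. Its 8 smooth muscle markers summed to 325.5 CPM, against 652.7 and 718.2 CPM in libraries 1 and 2 of its group, and the basement membrane partners to 1513 CPM, against 2304 and 2578 CPM. Its 10 fibroblast markers, with no collagen among them, summed to 2646 CPM, against 3166 and 2840 CPM. Its neutrophil markers summed to 2770 CPM, against 414.3 and 534.1 CPM. The part of these differences in the collagen and laminin values was not tested.

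The third comparison set LPS + RSBD against control. In edgeR 0 of the 49 genes passed, beside 3.7% of all genes tested (1.89% higher, 1.8% lower), and 12 of the 49 (24.5%) had an unadjusted p under 0.05, near the 22.7% of all genes. DESeq2 called 6, with Col15a1, Col18a1, Col23a1 and Lamb3 higher and Lama5 and Lamb2 lower. The share of all genes that DESeq2 called in this comparison is not given here, so these 6 have no background beside them. Lamb2 had the smallest edgeR adjusted p, 0.0611, at a log2 fold change of -0.31 ± 0.08, and Lama5 was at -0.47 ± 0.15 (edgeR adjusted p = 0.0979). Both were below the controls in 3 of 3 LPS + RSBD libraries, and both were called when LPS library 1 was left out. Without overlap 1 gene was higher, Col23a1, and 6 were lower, beside a background of 15.4% and 15% (30.4% in either direction).

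The result for LPS + RSBD against control turned on LPS + RSBD library 3. Without it 9 of the 49 genes were called, all higher, beside 3.56% of all genes tested: the fibrillar Col1a2 and Col3a1, the basement membrane genes Col4a3, Lama2, Lama3 and Lamb3, and Col15a1, Col16a1 and Col18a1. Col3a1 then averaged 220.3 CPM in the 2 remaining LPS + RSBD libraries and 70.4 CPM in the 3 controls, or 1.64 ± 0.29 as log2 fold change (edgeR adjusted p = 0.0302), beside 1.18 ± 0.55 with all libraries (0.238). Col18a1, a basement membrane collagen whose end fragment is endostatin, averaged 49.3 CPM and 24.6 CPM, with 1.00 ± 0.13 (0.00932) beside 0.73 ± 0.24 (0.117). Col15a1, its closest relative, averaged 16.9 CPM and 6.01 CPM, with 1.49 ± 0.18 (0.00881) beside 1.14 ± 0.34 (0.0908). These numbers in brackets are edgeR adjusted p. LPS + RSBD library 3 was the lowest of its group in 38 of the 49 genes. Leaving it out therefore raises the group mean of those genes by construction. The values without it show how far the result rests on that library and are no separate test.

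Genes that make, bind or sense these proteins were read from the same fit. Of 31 genes for collagen processing, 1 was higher and 5 were lower in LPS against control (19.4%, near the 17.4% of all genes; median log2 fold change 0.10, beside -0.01 for all genes). P4ha2 and P4ha1, catalytic subunits of the prolyl hydroxylase that stabilises the triple helix, averaged 50.4 ± 3.97 and 69.8 ± 5.84 CPM with LPS and 100.7 ± 10.4 and 129.7 ± 16.0 CPM in controls (SD, n = 3 each). Their log2 fold changes were -1.0 ± 0.10 and -0.89 ± 0.11 (edgeR adjusted p = 0.00148 and 0.00282), and both were kept under all 17 settings. Lox, which cross-links collagen and elastin, was at -1.12 ± 0.22 (edgeR adjusted p = 0.0138; 0.0542 without LPS library 2). Colgalt1, which adds galactose to collagen hydroxylysine, was at 0.49 ± 0.10 (edgeR adjusted p = 0.0127; up to 0.0541 without control library 3 or LPS library 2 or on unfiltered TPM). The same 4 genes were called in the same direction in LPS + RSBD against control, at log2 fold changes of -0.97, -0.80, -1.41 and 0.52. These 2 comparisons share the control libraries. In LPS + RSBD against control 4 of the 31 (12.9%) were called, beside 3.7% of all genes. There P4ha1 and P4ha2 were kept under all 17 settings, Lox was lost with the replicate block (0.0541), and Colgalt1 was kept under 9 settings and lost without any control library or LPS + RSBD library 1 or 2 (adjusted p up to 0.0918).

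Among 17 matrix receptors 4 were higher and 3 lower in LPS against control (41.2%, beside 17.4% of all genes; median 0.19). Itga6, a laminin receptor subunit, averaged 221.4 ± 42.1 CPM with LPS and 118.4 ± 14.5 CPM in controls, or 0.90 ± 0.14 as log2 fold change (edgeR adjusted p = 0.00576). Itgb4, its partner in the integrin of hemidesmosomes, averaged 20.9 ± 2.42 CPM with LPS and 32.8 ± 8.36 CPM in controls, or -0.65 ± 0.18 (edgeR adjusted p = 0.0342), a call kept under 8 of 17 settings and lost without any LPS library or control library 2 or 3 (adjusted p up to 0.110). Itga10, a subunit of a collagen-binding integrin, was at -1.42 ± 0.22 (edgeR adjusted p = 0.00557), and the calls of Itga6 and Itga10 were kept under all 17 settings. Itga2, of another collagen receptor, was at 0.62 ± 0.13 and Lair1, a collagen receptor of leukocytes, at 1.33 ± 0.28 (edgeR adjusted p = 0.0147 for both); each was lost without control library 2 or 3 or LPS library 2. Of 15 basement membrane partners 0 were higher and 1 lower at an edgeR adjusted p under 0.05, with 3 (20%, beside 34.5% of all genes) at an unadjusted p under 0.05 (median -0.04). That gene was Frem2, of the complex that joins epithelium to the matrix, at -1.15 ± 0.29 (edgeR adjusted p = 0.0269), lost without control library 2 or 3 or LPS library 2.

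Among 20 fibril partners 3 were higher and 1 lower (20%, near the 17.4% of all genes; median 0.40). Postn, the matricellular protein periostin, averaged 273.2 ± 19.8 CPM with LPS and 128.9 ± 18.1 CPM in controls (log2 fold change 1.08 ± 0.19, edgeR adjusted p = 0.00900), kept under all 17 settings. Mfap4, a microfibril protein, was at 2.43 ± 0.47 (edgeR adjusted p = 0.0127; 0.0614 without control library 3). Fbln5, needed for elastic fibres, was at 0.75 ± 0.22 and Tnxb, a tenascin, at -1.19 ± 0.32 (edgeR adjusted p = 0.0449 and 0.0358), and these were kept under 9 and 8 of 17 settings. Among 20 genes of the TGF-beta pathway, which drives collagen transcription in fibroblasts, 1 was higher and 3 were lower (again 20%; median -0.08). Smad3, its signal transducer, averaged 48.7 ± 2.31 CPM with LPS and 92.7 ± 8.38 CPM in controls, or -0.93 ± 0.08 as log2 fold change (edgeR adjusted p = 0.000825), kept under all 17 settings. Tgfb1, a ligand, was at 0.46 ± 0.10 (edgeR adjusted p = 0.0136), lost without control library 2 or LPS library 2. Tgfbr3, a co-receptor, and Skil, an inhibitor, were at -0.47 ± 0.14 and -0.38 ± 0.11 (edgeR adjusted p = 0.0427 and 0.0428), kept under 5 and 8 settings.

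In LPS + RSBD against LPS none of the genes of these 5 lists was called by edgeR. The counts at an unadjusted p under 0.05 were 0 of 31 for collagen processing, 3 of 15 (20%) for basement membrane partners, 3 of 17 (17.6%) for receptors, 6 of 20 (30%) for fibril partners and 2 of 20 (10%) for the TGF-beta pathway, beside 9.42% of all genes. In LPS + RSBD against control the calls outside collagen processing were 5. They were 2 of 17 receptors (11.8%), 2 of 20 fibril partners (10%), 1 of 20 TGF-beta genes (5%) and 0 of 15 basement membrane partners. Of all genes tested, 3.7% were called in that comparison. Smad3 was at -0.72 ± 0.08 (edgeR adjusted p = 0.00614), kept under all 17 settings. Postn was at 1.09 ± 0.19 (edgeR adjusted p = 0.0229) and Lum, a proteoglycan of collagen fibrils, at 1.45 ± 0.28 (edgeR adjusted p = 0.0257). Postn was kept under 10 of 17 settings and lost without any control library or LPS + RSBD library 1 or 2 (adjusted p up to 0.0749). Lum was kept under 11 and lost without control library 1 or 3 or LPS + RSBD library 1 or 2 (up to 0.0927). Itga10 was at -1.22 ± 0.22 (edgeR adjusted p = 0.0220), kept under 13 settings and lost without any control library. Itga2 was at 0.61 ± 0.13 (edgeR adjusted p = 0.0372), kept under 6.

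Some counts may hold reads of a neighbour. The Lamb3 gene model overlaps Hsd11b1 on the opposite strand over 42442 bases, and Hsd11b1 averaged 212.5 CPM over the 9 libraries. Lamb3 also overlaps G0s2 (29.7 CPM), Col18a1 overlaps Slc19a1 (6.14 CPM) and Col10a1 overlaps Nt5dc1 (22.5 CPM), all on opposite strands. The library kit keeps strand, but the sources used here do not say whether the counting used it.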

How the data were processed

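Lung mRNA of 9 mice was sequenced in strand-specific libraries with paired reads, per the labels' protocols. The authors deposited 1 table of expected counts (estimated counts per gene, whole numbers in every cell) and 1 of TPM values for the same 21930 genes. The tools named in the submitters' processing notes are DESeq2 1.38.3, StringTie 2.2.0, HISAT2 2.2.1 and fastp 0.23.2, with the GRCm38 (mm10) build. Which tool counted, with which annotation and strand setting, is not given in the sources used here. Coordinates are those of the deposited tables, and for all 55 genes they equal those of GENCODE M21.

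Each column was tied to a library through its group and number, and columns headed RS to the RSBD titles. The main test was edgeR 4.0.16 (R 4.3.3): TMM factors, filterByExpr (minimum count 10, minimum total 15), a quasi-likelihood fit with robust spread over all 9 libraries with group as factor, and Benjamini-Hochberg adjustment over 15636 genes at 0.05. CPM are counts scaled to 1e+06 per TMM-adjusted library, SE is the log2 fold change divided by the square root of F, and the median SE was 0.15. The fit was tested on simulated counts. Alternatives were DESeq2 1.42.0, RLE factors, limma 3.58.1 on log2(TPM + 1) and log2(TPM + 0.1) with TPM of 0.5 in 3 libraries and with no filter, edgeR with no filter, with the 6 compared libraries, with the replicate number as a block, and without each library. Values in every library are given for the genes called, the 3 of each class highest in TPM and a set of 12 chains; 1 gene is not reported here. The genes, lists and pairs were chosen with earlier results of these data known.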

Additional observations from a re-analysis of the deposited data

How the results depend on the processing

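The count of collagen and laminin genes called in LPS against control was 10. It was 12 with DESeq2, 9 with RLE factors, 10 with no filter, 11 on the 6 compared libraries, 5 on log2(TPM + 1), 4 on log2(TPM + 0.1) and 2 on unfiltered log2(TPM + 1). Leaving out 1 library gave 2 (control 2) to 12 (LPS + RSBD 3). It gave 3 without control 1, control 3, LPS 2 or LPS 3, 6 without LPS 1 or LPS + RSBD 1 and 7 without LPS + RSBD 2. The cause of these changes was not tested, beyond the fewer libraries in each such fit. Of all genes tested, 17.4% were called in the main fit and 16.9% without LPS + RSBD 3. The shares under the other settings are not given here, so those counts have no background beside them.

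In LPS + RSBD against LPS the count was 0 throughout except for 1 with DESeq2. In LPS + RSBD against control it was 0 except for 6 with DESeq2, 2 without LPS 1 and 9 without LPS + RSBD 3, so leaving out 1 library gave 0 to 9. Of all genes tested, 3.7% were called there in the main fit and 3.56% without LPS + RSBD 3. The shares with DESeq2 and without LPS 1 are not given here.

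Same-numbered libraries did not visibly deviate together, with correlations from -0.21 to 0.12, beside -0.16 to 0.19 for libraries of different number. With 3 libraries a group these values cannot decide whether the numbers pair the libraries. With the replicate number as a block, 9 genes were called in LPS against control, 8 of them among the 10, and 0 in the other 2 comparisons.

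The 1071 alternative values of single genes cover only 21 of the tested collagens and laminins. These were the genes called, those highest in TPM in each class and a set of chains. Of the 170 values that were called in the main fit, 74 lost the call under the alternative. Of the 901 that were not called in the main fit, 11 gained a call. The other 986 of the 1071 kept their side of the threshold and direction or were uncalled in both. No called value changed sign; 47 values that were called under neither setting did, the largest at 0.25 on the log2 scale. With 3 libraries a group, a median SE of 0.15 and permutation p-values that cannot go below 0.1, small differences were not detectable here.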

Other observations

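The neighbours of Lama1 on chromosome 17 gave mixed values. Ptprm, upstream of it, averaged 155.2 CPM with LPS + RSBD, 155.6 CPM with LPS and 96.9 CPM in controls, and its LPS over control log2 fold change was 0.68 (edgeR adjusted p = 0.00417). Arhgap28, the next gene downstream, averaged 20.8, 21.1 and 19.4 CPM in the same groups, at 0.13 on that scale (edgeR adjusted p = 0.455). Rab12 was at 0.14 and Epb41l3 at 0.09, neither called. In LPS + RSBD against LPS the log2 fold change was -1.96 for Lama1, and between -0.12 (Rab12) and 0.30 (Epb41l3) for the 4 neighbours, none of the 5 called by edgeR.

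The level of cardiac muscle genes differed between libraries. The summed CPM of 8 cardiac markers was 631.8, 318.7 and 166.0 with LPS + RSBD, 96.4, 136.8 and 126.8 with LPS and 117.1, 230.0 and 453.8 in controls. All 3 LPS + RSBD libraries were above all LPS libraries. LPS + RSBD library 3 had the lowest cardiac sum of its group and was lowest of its group in 38 of the 49 tested collagens and laminins. The other groups did not follow this order. Control library 3 had the highest cardiac sum of its group but was lowest of its group in 26 of the 49. LPS library 1 had the lowest cardiac sum of its group but was lowest of its group in 5. Of the 8 markers 1 (Ttn) was called lower in LPS against control (12.5%, beside 8.63% of all genes). The call of Ttn was kept under 6 of 17 settings. In LPS + RSBD against LPS 0 were called by edgeR, and 6 (75%, beside 9.42% of all genes) had an unadjusted p under 0.05. Which tissue these transcripts came from, and its part in the collagen values, was not tested.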
